A study of Arabidopsis thaliana with 22 samples.

Results

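In leaves of Arabidopsis thaliana followed through a light and dark cycle, 186 of 22746 probe sets reached their highest level at 20 h in both replicate series. A probe set is the group of array probes that stands for a transcript. Members had a mean of at least 50 over all 22 arrays and a range, highest minus lowest hour, of at least 1.5 on the log2(value + 4) scale in each series. The highest hour had to be 20 h in each, with 0 h and 24 h averaged into one hour. The mean was reached by 10482 probe sets, the range by 1491 of these, and 822 of the 1491 had the same highest hour in both series. Among those 822, 20 h was the most frequent hour with its 186 probe sets, ahead of 13 h with 153, 12 h with 131 and 14 h with 98. The members were therefore chosen on their levels at every hour in both series, and those levels are given as a description, with no test.

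The plants were Col-0, the common laboratory accession, without a transgene or treatment named in the labels, grown in compost at 20 °C under 12 h of light and 12 h of dark and taken at growth stage 3.90. Leaves were collected at 0, 1, 2, 4, 8, 12, 13, 14, 16, 20 and 24 h, as the source names state, with 20 plants pooled per sample and 2 biological replicates per hour, called series 1 and series 2 here. Whether 0 h opened the light or the dark period is not stated. Titles in series 1 carry numbers that the labels do not explain, such as 21 for the 0 h array, 23 for 2 h, 1 for 4 h and 17 for 20 h. These numbers advance with the hour as clock times would, which would set the 20 h sample in the afternoon. That reading was not tested, so hours are given as numbers. On 4 arrays the age tag and the source name disagree, the tag being 5 h for both arrays called 8 h and 14 h for both called 16 h. Nothing in the labels says that the replicates were separate plantings, so p-values measure the spread between these samples.

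Many plant transcripts follow the circadian clock, a loop in which morning genes repress evening genes and evening genes in turn repress morning genes. Evening genes such as GI act in the clock and in the day-length control of flowering. Leaf transcripts also follow light and sugar directly, because starch stored in the light feeds the plant in the dark, and several genes of the cold response are under clock control. Each leaf sample mixes many cells, so a lower value from fewer cells of a type and one from less RNA per cell cannot be told apart.

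The platform annotation named 1 gene for 94 members, several genes for 4 and none for 88. The 94 stood for 93 genes, because AT1G10090 had 2 probe sets among the members. A gene symbol was given for 16 members and a locus code for the others, and no role is stated for genes known only by a code. The symbols were GI (AT1G22770), the cold-response genes COR15B, COR47, LTI30 and TIL, the chlorophyll synthesis gene PORB, and the metabolic genes PDC2, ALDH6B2, BGLU44, UGT72E1 and TMT2. The others were the cell structure genes TUB5, WLIM2a and TET3 and the protein-handling genes GAMMA-VPE and Fes1B.

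All arrays had been scaled by the authors to a common mean of 100, and array medians ran from 37.6 to 44.7. The 20 h array of series 2 stood apart in its scan statistics. Its background was 109.13 and its noise 9.06 per the labels, against 63.15 to 94.31 and 3.39 to 5.38 on the other 21 arrays. Its RawQ, a pixel-noise measure of the scan, was 3.89, against 2.51 to 3.35. The actin probes gave a 3′ over 5′ ratio, a sign of RNA quality, that ran from 2.35 to 6.31 in series 2 and from 1.56 to 2.52 in series 1. Of the leaf markers, the mesophyll gene RCA, the activase of Rubisco, was at 3689 on average over the arrays. The guard cell gene FAMA was at 51.0. The gene found under the symbol FDH, listed for the epidermis, was at 739. Markers were matched by symbol or synonym alone and the locus behind FDH was not checked, so its value is not read as an epidermis level. The other markers on the list, all 6 root markers among them, had no probe set named for them.

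Most members shared a shape with a trough at 12 to 14 h. The rule named no lowest hour, but its range used the lowest level of each member, so the shape is a description. In each member the level was set between 0% at its lowest hour and 100% at 20 h. The median over members stood at 74.2% at 0 and 24 h, 63.6% at 1 h, 57.9% at 2 h, 53.6% at 4 h and 42.4% at 8 h. It was then 14.4% at 12 h, 8.96% at 13 h, 8.33% at 14 h and 46.8% at 16 h, before 100% at 20 h. The median thus stood lower at each sampled hour up to 14 h and higher at 16 h and 20 h. The summed value of all members was 93580 at 20 h in series 2, against 20266 at 12 h, its lowest. In series 1 it was 112097 at 20 h, against 20445 at 13 h.

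**Figure D1:**
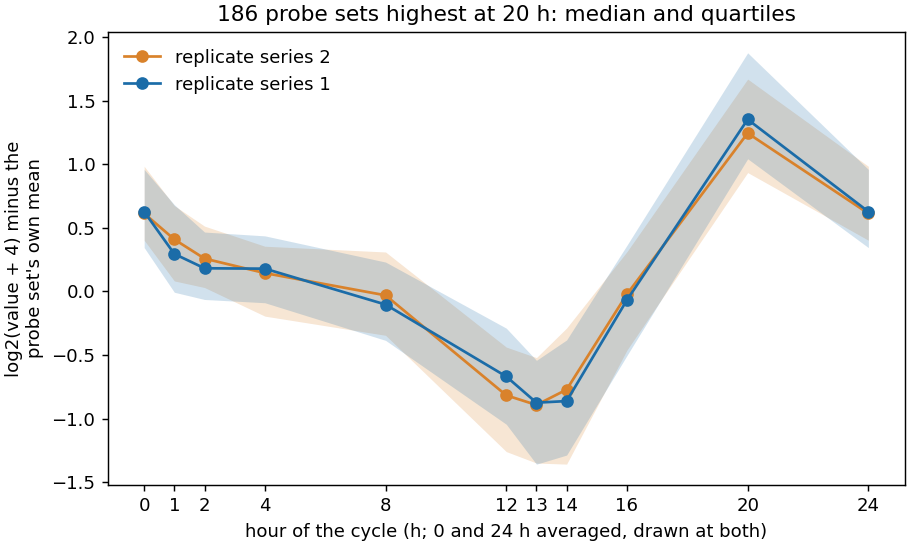
Median of the 186 members (lines with points) and their quartiles (shaded) on the log2(value + 4) scale, each probe set centred on its own mean, by hour for series 2 and series 1. The average of 0 and 24 h is drawn at both ends. Both series lie lowest at 13 h and highest at 20 h, where the medians are 1.25 in series 2 and 1.35 in series 1.

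The lowest hour in both series lay between 12 and 14 h for 154 of the 186 members, and between 1 and 8 h for 9. No such count is given for probe sets highest at other hours, so the trough is not read as particular to the members. By the mean of both series, the lowest hour was 12 h in 49 members, 13 h in 52 and 14 h in 59. The other members were lowest at 1 h (4), 2 h (1), 4 h (2), 8 h (10) or 16 h (9), and none at 0 and 24 h. The exact hour repeated less well, since 83 members had the same lowest hour in both series. For 60 members the mean at the lowest hour was under 29.2, the highest value of any of the 27 control probe sets for bacterial transcripts. Folds against such low values are not interpreted here, and ranges on the log2(value + 4) scale understate them.

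**Figure D2:**
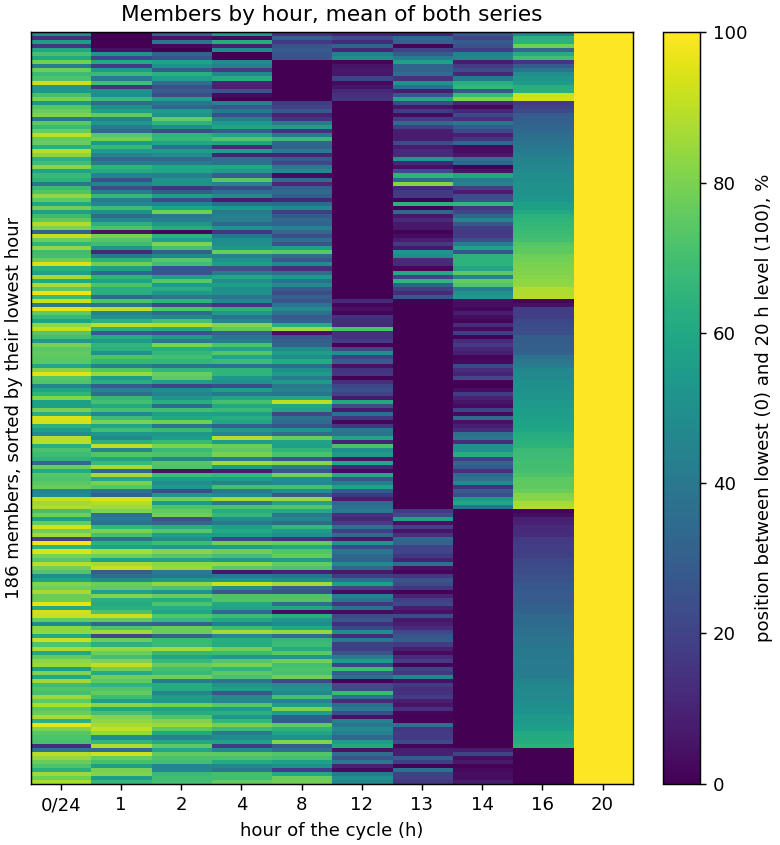
Level of each member (rows, grouped by lowest hour) at each hour (columns), as a percentage of its own range in the mean of both series, from 0% (dark blue) to 100% (yellow). The 20 h column is at 100% by the choice of members. The dark blocks at 12, 13 and 14 h hold 49, 52 and 59 members.

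Ranges were wide among the members. The mean range of both series had a median of 2.49 on the log2 scale, with quartiles of 2.05 and 3.44 and extremes of 1.55 and 6.36. It was at least 2 in 144 members and at least 3 in 66. Mean values at 20 h ran from 87.0 to 3802 with a median of 307. Both 20 h arrays lay above the other 20 arrays in 125 members. The rule asked for 20 h as the highest hour in each series, so nothing is read from this count. No share over all probe sets is given for it. In 19 members the 20 h array of at least 1 series was below the 0 h or 24 h array of that series, which the averaging of those hours allows. AT1G21680, for example, had 708 at 20 h and 685 at 24 h in series 2, and 901 at 20 h and 934 at 24 h in series 1.

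GI, a clock and flowering-time protein, had the widest range of the set. It was the only member matched, by symbol or synonym alone, to a list of 17 evening clock genes. Only 2 of these 17 had a named probe set, so others may be among the members known by a locus code or without a gene name. From 0 to 24 h in the order of sampling, its values in series 2 were 477, 207, 41.8, 6.5, 15.2, 20.0, 99.0, 115, 104, 602 and 519. In series 1 they were 400, 166, 43.5, 22.7, 2.1, 2.2, 68.9, 164, 93.6, 712 and 484. Both 20 h arrays were the highest of their series, and all arrays at 4, 8 and 12 h were under 29.2. GI was lowest at 4 h in series 2 and at 8 h in series 1, earlier than most members. It stood at 50.6% of its range at 13 h, where the median member was near its lowest level, and was still at 91.9% at 0 and 24 h.

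Of the cold-response genes, COR15B encodes a chloroplast protein that protects membranes in freezing, COR47 and LTI30 encode dehydrins, and TIL a lipocalin. COR15B was at 1750 in series 2 and 1892 in series 1 at 20 h, and at 1749 and 1850 at 24 h. At 14 h it was at 78.2 in series 2 and 166 in series 1, so its high level lasted from 20 to 24 h. At 0 h the series differed more, with 1654 in series 2 and 939 in series 1. COR47 was at 1152 in series 2 and 1965 in series 1 at 20 h, but series 1 also held 1189 at 4 h, where series 2 held 316. LTI30 showed the same split, with 280 in series 2 and 350 in series 1 at 20 h, and 42.0 in series 2 and 258 in series 1 at 4 h. The high 4 h level of both dehydrin genes was thus seen in series 1 alone. Series 1 was also the higher at 2 h, with 1020 against 316 for COR47 and 161 against 89.1 for LTI30. TIL was at 1099 in series 2 and 1691 in series 1 at 20 h and lowest at 4 h in both series, at 310 in series 2 and 442 in series 1. TIL was one of the members already high before 20 h, at 69.9% of its range at 16 h.

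PORB, which makes chlorophyllide in the light-dependent step of chlorophyll synthesis, had a second and lower maximum at 8 h. It was at 1415 in series 2 and 1510 in series 1 at 8 h, at 76.8 and 146 at 14 h, and at 1903 and 3734 at 20 h. Its 20 h arrays differed by more than those at 8 h and averaged 2818 ± 1295 (SD, n = 2). The 8 h level was 81.2% of its range, against a median of 42.4% over the members.

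The metabolic genes differed in their trough. PDC2, a pyruvate decarboxylase of ethanol fermentation, was lowest at 12 h in both series, at 63.3 in series 2 and 82.5 in series 1. At 20 h it was at 924 in series 2 and 734 in series 1, an 11.4-fold difference of means. TMT2, which carries sugars across the vacuole membrane, was lowest at 4 h in both series, at 52.5 in series 2 and 47.0 in series 1. It reached 227 in series 2 and 205 in series 1 at 20 h, a 4.34-fold difference of means with little spread at either hour. BGLU44, of the beta-glucosidase family, was at 1639 in series 2 and 2330 in series 1 at 20 h, and at 83.9 and 101.9 at 14 h. ALDH6B2, an aldehyde dehydrogenase of valine breakdown, was among the 9 members lowest at 16 h in the mean of both series. It was lowest at 14 h in series 2, at 107, and at 16 h in series 1, at 82.9. At 20 h it stood at 446 in series 2 and 376 in series 1. UGT72E1, a glucosyltransferase of phenylpropanoids, was at 304 in series 2 and 171 in series 1 at 20 h, and lowest at 13 h at 66.8 and 33.5.

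Of the cell structure genes, TUB5, a beta-tubulin, was at 619 in series 2 and 882 in series 1 at 20 h, and at 129 and 150 at 14 h. From 0 to 8 h it held nearly level, between 369 and 437 in every array. WLIM2a, an actin-binding LIM protein, was at 219 in series 2 and 285 in series 1 at 20 h and at 23.1 in both series at 14 h. TET3, a membrane protein of the tetraspanin family, was at 413 in series 2 and 355 in series 1 at 20 h, against 267 and 262 at 16 h, the hour with its next highest level. Of the protein-handling genes, GAMMA-VPE, a vacuolar protease, was at 1752 in series 2 and 864 in series 1 at 20 h. Its lowest hour was 12 h in series 2, at 518, and 13 h in series 1, at 243. Fes1B, a partner of the chaperone Hsp70, was at 174 in series 2 and 372 in series 1 at 20 h, and at 21.2 and 29.2 at 14 h.

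**Figure D3:**
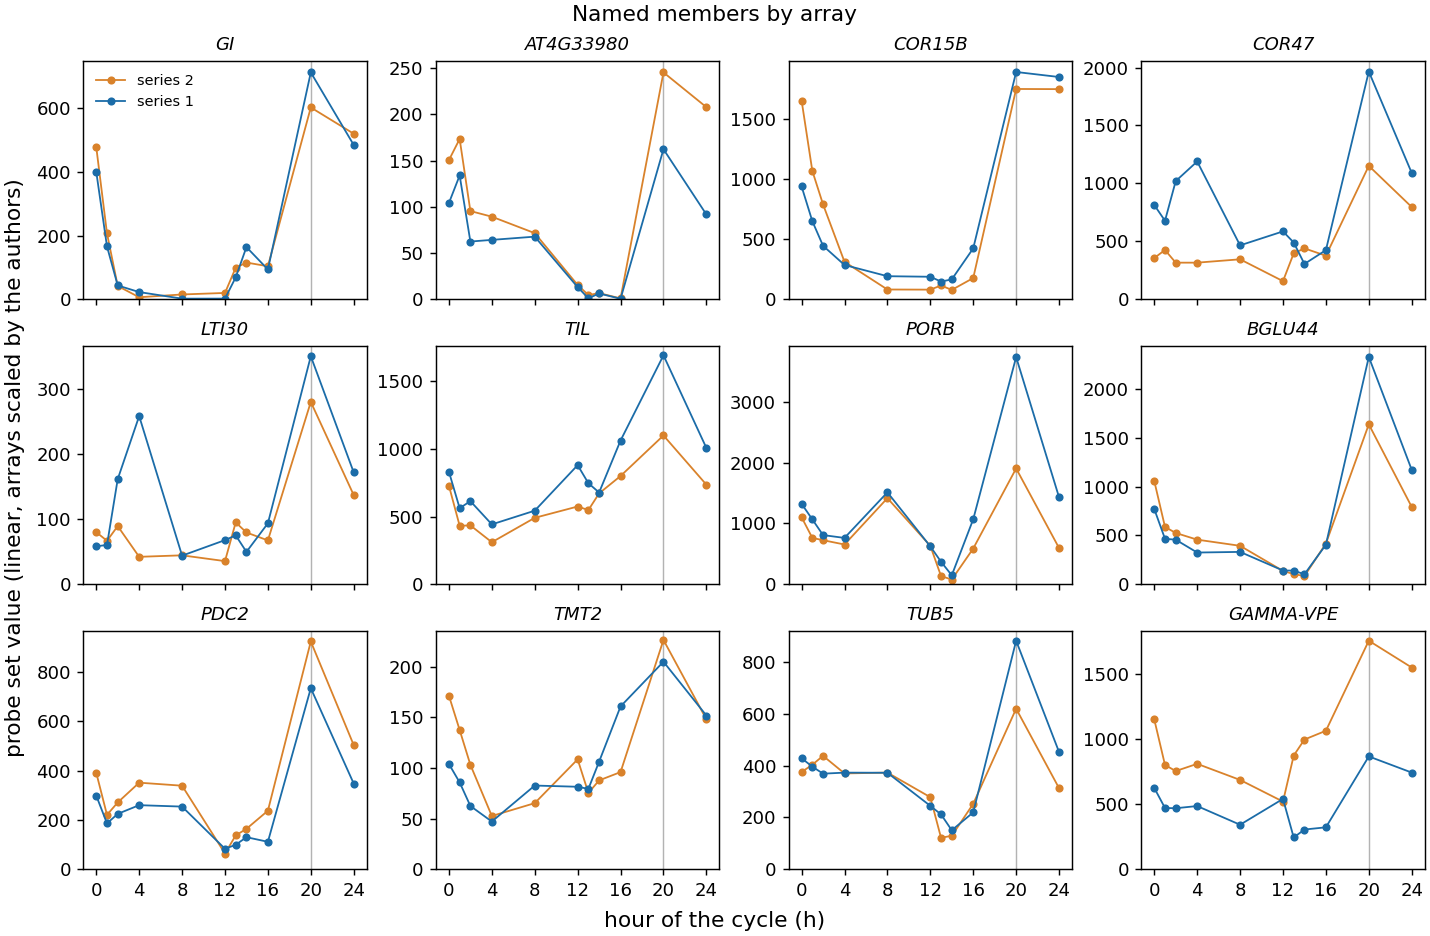
Values of 12 named members on the linear scale set by the authors, by hour, in series 2 (orange) and series 1 (blue), 1 array per point. Each panel has its own vertical axis from 0, and the grey line marks 20 h. GI is low from 4 to 12 h, TMT2 is lowest at 4 h, PORB has a second maximum at 8 h, and COR47 and LTI30 have a 4 h maximum in series 1.

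Most of the widest ranges belonged to genes known by locus code. After GI, the widest among members with 1 gene were those of AT1G70820 (6.29), AT1G56300 (6.19), AT3G62550 (5.88), AT2G39920 (5.67), AT5G62360 (5.42) and AT4G33980 (5.41). AT1G70820 was at 6.0 in series 2 and 3.1 in series 1 at 13 h, and was at 741 and 579 at 20 h. It was already high before 20 h, with 425 in series 2 and 358 in series 1 at 16 h, 88.2% of its range. AT1G56300 showed the opposite timing, at 24.6 in series 2 and 27.4 in series 1 at 16 h and at 703 and 641 at 20 h. AT4G33980 was likewise low at 16 h, its lowest hour in both series, at 1.0 in series 2 and 0.6 in series 1. All its values from 12 to 16 h were under 29.2, so the order of these hours is not interpreted. At 20 h it was at 246 in series 2 and 162 in series 1, so its rise from this low level lay between 16 and 20 h. AT5G62360 was at 729 in series 2 and 845 in series 1 at 20 h, and by 24 h it was at 87.7 and 100, a short maximum at a single sampled hour. AT2G15960 was at 1368 in series 2 and 1597 in series 1 at 20 h. It still had 441 and 539 at 12 h and was at 38.7 and 47.8 at 14 h. The others of the 15 widest were AT4G30650, AT1G11210, AT1G64890, AT2G47890, AT4G16146, AT1G51090 and PORB, with ranges from 5.12 to 4.60. AT1G13930 had the highest value at 20 h of all members, 3208 in series 2 and 4396 in series 1, and the next among members with 1 gene were PORB, AT4G30650, AT5G62350, BGLU44 and COR15B.

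The members differed in how they approached and left their maximum. The difference of 20 h minus 16 h had a median of 1.34 on the log2 scale and was at least 1 in 128 members. The difference of 20 h minus the mean of 0 and 24 h had a median of 0.64 and was at least 1 in 48. The step up from 16 h was thus larger at the median than the step down, and 151 members stood higher at 0 and 24 h than at 16 h, against 35 higher at 16 h. The second highest hour was 0 and 24 h in 108 members, 1 h in 28, 16 h in 23 and another hour in 27. The samples at 16 h and 24 h each lie 4 h from 20 h, but no sample was taken between, so the true maximum may lie anywhere in that span.

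Some members were at the ends of this spread. At 16 h, AT1G70820, AT3G61820 and AT5G05090 held 88.2%, 88.1% and 86.8% of their ranges, the highest among members with 1 gene. In the mean of both series AT4G33980, AT5G62360 and ALDH6B2 were lowest at 16 h, but AT5G62360 was lowest at 12 h in series 2 and at 14 h in series 1, and ALDH6B2 at 14 h in series 2. At 0 and 24 h, AT1G04990, AT3G61820 and AT4G16146 stood at 97.6%, 97.3% and 96.0% of their ranges. AT2G30600, AT1G73750 and AT1G22570 were back at 12.9%, 16.1% and 19.5%. AT1G73750 was at 155 in series 2 and 238 in series 1 at 20 h, and at 71.6 and 66.5 at 24 h.

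**Figure D4:**
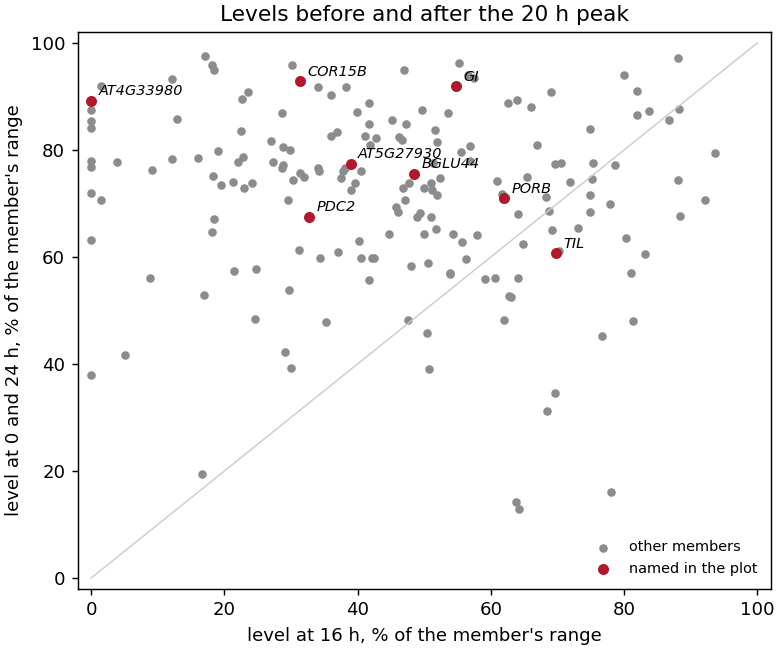
Level of each member at 16 h (horizontal) and at 0 and 24 h (vertical), both as a percentage of its own range in the mean of both series, with 8 named members in red. The line marks equal levels, with 151 of 186 members above it and 35 below it, TIL among those below. AT4G33980 lies at 0% at 16 h and 89.2% at 0 and 24 h.

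Steps between hours other than 20 h were read from whether the arrays of the compared hours overlapped. The rule used these hours too, so the counts are a description. From 12 to 13 h, 64 members were lower at 13 h without overlap, against 23.7% of all 13648 probe sets tested, and 27 were higher, against 17.5%. From 12 to 16 h, 103 members (55.4%) were higher at 16 h without overlap, against 23.1% of all, and 20 were lower, against 26.2%. Setting 1 h against 0 and 24 h, 68 members (36.6%) were lower without overlap, against 14.1% of all, and 4 were higher, against 11.9%. Setting 4 h against 0 and 24 h, 95 members (51.1%) were lower, against 15% of all, and 2 were higher, against 13.2%.

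The choice of members was also read across the series. On series 1 alone the rule chose 344 probe sets, of which 235 (68.3%) were also highest at 20 h in series 2. Among all 1831 probe sets with that mean and range in series 2, 17.04% were highest at 20 h. On series 2 it chose 312, of which 210 (67.3%) were highest at 20 h in series 1, against 15.2% of 2270. The chosen probe sets did not have to reach the range in the other series, unlike the sets they are compared with. There, 88 of the 344 and 52 of the 312 fell below it. The shares are a description, since the 2 series shared hours and processing.

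Members just inside the range threshold of 1.5 were AT5G05090 at 1.501, AT3G07080 at 1.53 and AT1G21670 at 1.54, each in the series with its smaller range. Just outside were AT4G33670 at 1.497, another probe set of AT2G30600 at 1.493 and AT4G12070 at 1.491.

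The rule averaged 0 and 24 h, so their difference was free of it and was tested with limma. No member passed at an adjusted p under 0.05, and of all 13648 probe sets tested 0% passed. At an unadjusted p under 0.05, 9 members were higher at 24 h and none was lower, against 2.68% of all probe sets in either direction, 1.7% higher and 0.982% lower. The differences leaned to one side. They were above 0 in 139 of 186 members (74.7%), against 54.7% of all probe sets, with a median of 0.16 over members and 0.03 over all. By series, 24 h was above 0 h in 115 members (61.8%) in series 2 and in 144 (77.4%) in series 1, against 55.7% and 50.7% of all. Without overlap of arrays, 42 members were higher at 24 h, against 15.8% of all, and 4 were lower, against 11%. Among probe sets highest at other hours this share above 0 was 52.0% at 0 and 24 h (50 probe sets), 37.8% at 1 h (90), 29.4% at 2 h (17), 87.5% at 4 h (8) and 77.8% at 8 h (27). It was 63.4% at 12 h (131), 46.4% at 13 h (153) and 50.0% at 14 h (98), and the 16 h class of 62 probe sets had 67.7%. The members' share thus lay below those of the 4 h and 8 h classes, and the difference between classes was not tested. The actin ratio was 4.15 in the 24 h array of series 2 and 2.50 in its 0 h array, and 1.67 and 1.62 in series 1. The title of that 24 h array carries the word repeat, which the labels do not explain. Its median was the highest of all arrays, 44.7, against 39.6 in the 0 h array of series 2. The part of the actin ratio, the repeat or the array median in the difference was not tested.

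The 9 members included the near neighbours AT4G12500 and AT4G12490. AT4G12500 was at 98.8 in series 2 and 90.3 in series 1 at 24 h, against 24.4 and 37.2 at 0 h. The difference was 1.53 ± 0.41 (SE) on the log2 scale, with an adjusted p of 1.00 by limma. AT4G12490 was at 332 in series 2 and 294 in series 1 at 24 h, against 145 and 122 at 0 h, a difference of 1.21 ± 0.42. AT2G15960 (0.58 ± 0.24), AT3G22970 (0.56 ± 0.22) and AT2G03310 (0.49 ± 0.23) were the other members with 1 gene. They were named after their values were seen.

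The level difference between the series was likewise free of the rule. In limma with hour as a term, 78 members (41.9%) differed at an adjusted p under 0.05, against 35.8% of all probe sets tested. Of these, 38 were higher in series 2, against 19.4% of all, and 40 were lower, against 16.4%. The median difference was 0.02 over members and 0.01 over all. Among members with 1 gene, GAMMA-VPE differed most of those higher in series 2, by 1.03 ± 0.14 (SE) with an adjusted p of 8.5e-05, and it was higher in 10 of 11 hours. AT1G27030 (0.66 ± 0.11), AT2G28720 (0.63 ± 0.08), AT4G30660 (0.60 ± 0.10) and AT3G55760 (0.50 ± 0.08) were the next with 1 gene. AT1G51090 differed most the other way, by -0.95 ± 0.21 with an adjusted p of 0.0025, and was lower in series 2 at all 11 hours. COR47 (-0.81 ± 0.19), AT5G62360 (-0.78 ± 0.24), AT3G27210 (-0.74 ± 0.11) and PORB (-0.60 ± 0.13) were the next with 1 gene. Without the 3 arrays of highest actin ratio, all of series 2, AT5G62360 no longer passed, at -0.55 ± 0.21 and an adjusted p of 0.071. The actin ratio was higher in series 2 (median 2.73) than in series 1 (median 1.75), and its part in these differences was not tested. GI differed by 0.25 ± 0.23 with an adjusted p of 0.40.

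**Figure D5:**
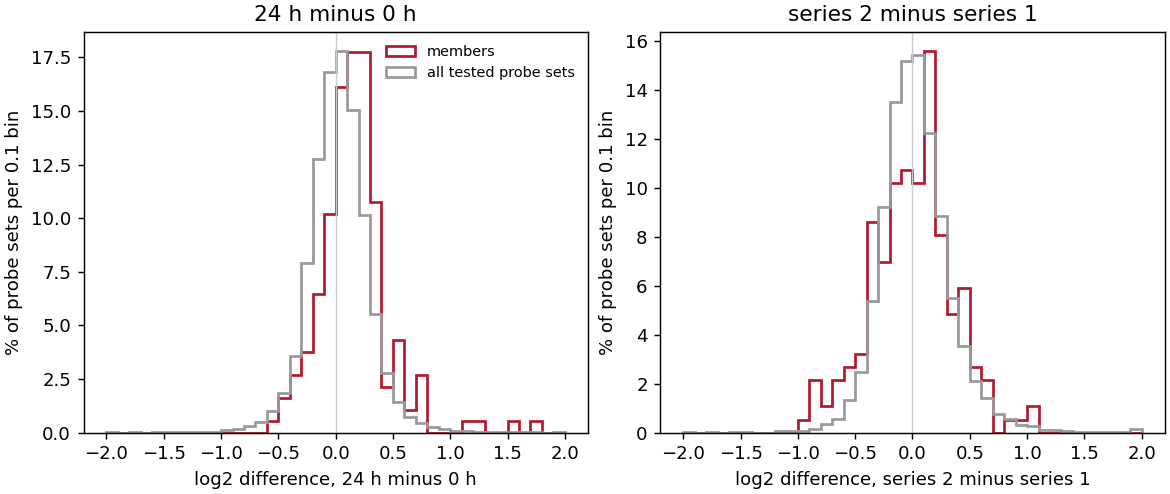
Share of probe sets (%) per 0.1-wide bin of the log2 difference, for the 186 members (red) and all 13648 tested probe sets (grey), for 24 h minus 0 h (left) and series 2 minus series 1 (right). The members lie to the right of the whole table at left, with medians of 0.16 and 0.03, and around the same centre at right, with medians of 0.02 and 0.01.

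Within the 20 h arrays, 117 members were lower in series 2 and 69 higher, with a median ratio of series 2 over series 1 of 0.925. The same count is not given over all probe sets, so a lean of the whole array cannot be told apart from one of the members. The part of the high background of the series 2 array in this was not tested.

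Genes of 13 pathway lists, 248 in all, were set against the same hour. A named probe set above the filter was found for 27, matched by symbol or synonym alone, so each list is covered only in part. The contrast of 20 h minus the mean of the 9 other hours passed in 1349 of all tested probe sets (9.88%), 688 higher (5.04%) and 661 lower (4.84%), and in 2312 with the replicate series as a block. Of the 27 list genes 8 were higher at 20 h, 0 lower and 19 did not pass. With the block 12 passed, adding COR15A, SBE2.2 and PSBW higher and LHCB4.3 lower (-0.45). The median difference was 0.37 over the 27 and 0.01 over all. The 8 included 5 members, GI, COR15B, COR47, LTI30 and TUB5, for which the rule used this contrast. It likewise passed in 177 of the 186 members, from which nothing is read.

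The other 3 were not members because their highest hour was not 20 h in both series. COR27, a cold-regulated gene linked to the clock, was at 212 in series 2 and 215 in series 1 at 20 h, against 0.900 and 1.40 at 16 h, but was highest at 1 h at 338 and 216. Its contrast was 2.06 ± 0.19 (SE) with an adjusted p of 4.7e-06 by limma. DPE1, a glucan-transferring enzyme of starch breakdown, was at 286 in series 2 and 233 in series 1 at 20 h and at 321 and 294 at 24 h. It differed by 1.59 ± 0.28 with an adjusted p of 0.0017. LHCB4.2, a light-harvesting protein of photosystem II, was at 2685 in series 2 and 4072 in series 1 at 20 h. It was at 3632 and 3167 at 12 h, at 3077 and 4180 at 16 h, and at 696 and 694 at 4 h. LHCB4.2 was thus high from 12 to 20 h, not at 20 h alone. It differed by 0.86 ± 0.16 with an adjusted p of 0.0022, and without the 20 h array of series 1 by 0.56 ± 0.19 with an adjusted p of 0.16. COR15A, so similar to COR15B that their probes may share signal, was at 1552 in series 2 and 2729 in series 1 at 20 h and at 2259 and 3026 at 24 h. Its difference of 1.75 ± 0.70 had an adjusted p of 0.14, and of 0.046 with the replicate block.

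The results by list are those of the fit without the replicate block, to which the block added the genes named above. By list, leaving out the 5 members, COR27 passed as the other tested evening clock gene, DPE1 as 1 of 2 genes of starch breakdown and LHCB4.2 as 1 of 7 of the photosystem. COR15A, the remaining tested gene of the cold and abscisic acid list, did not pass, nor did PEX4 and GAPC2, the remaining reference genes. None passed of 2 starch synthesis genes, 1 sucrose synthesis gene, 3 genes of nitrogen and sulfur assimilation and 1 flowering-time gene. Nor did the 2 found under symbols of the phenylpropanoid list, DFR and CHI. The locus behind CHI was not checked, so it may be a gene of another pathway. No morning clock, plastid protein synthesis or cytosolic ribosome gene was tested.

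The probe sets most like GI were ranked by Pearson correlation over the 22 arrays, as a description. AT3G46630 came first at 0.92, but it was highest at 20 h only in series 1 and at 0 and 24 h in series 2, and was no member. A member with no named gene followed at 0.89. It was at 317 in series 2 and 324 in series 1 at 20 h, at 257 and 234 at 16 h, and at 1.10 and 1.40 at 8 h. AT5G27930, also a member, had 0.89, with 244 in series 2 and 308 in series 1 at 20 h and 37.6 and 44.3 at 8 h, its lowest hour in both series. AT3G44850 had 0.86 and an unnamed probe set that was no member 0.86, both with ranges under 1. Over the members the correlation with GI ran from -0.23 to 0.89 with a median of 0.45, so profiles varied beyond the shared hour of the maximum. The arrays share hour and scaling.

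Some members lay side by side in the genome. By the RefSeq gene order (assembly TAIR10.1), 12 of the 93 member genes (12.9%) had another member within 3 genes. Among probe sets highest at 1 h it was 2 of 45 genes (4.44%), and none among those highest at 0 and 24 h (20 genes), 12 h (65), 13 h (70), 14 h (38) or 16 h (28). These classes differ in size, and the difference was not tested. The pairs were AT1G21670 with AT1G21680 and AT1G73750 with AT1G73760 on chromosome 1, and WLIM2a with AT2G39920 on chromosome 2. On chromosome 4 they were AT4G12490 with AT4G12500 and AT4G30650 with AT4G30660, and on chromosome 5 AT5G62350 with AT5G62360. Adjacent genes can be near copies whose transcripts bind each other's probes, which was not tested. The partners did not always move alike between the series, since AT4G30660 was higher in series 2 (0.60 ± 0.10) while AT4G30650 differed by -0.16 ± 0.14 with an adjusted p of 0.40 by limma. By chromosome, 32.3% of member genes lay on chromosome 1, against 25.97% of genes with a mean of at least 50, and 12.9% on chromosome 5, against 24.8%.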

How the data were processed

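The authors' deposited table holds linear intensity values per probe set for 22 Affymetrix ATH1 arrays. The values show that each array had been scaled to a mean of 100, once 2% at either end is left out. The software was not given in the sources used here. Of 22810 probe sets, 64 were controls and left out. The platform annotation named 1 gene for 13513 of the others, and symbols come from RefSeq (TAIR10.1), whose table holds all 94 members with 1 gene.

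The members and gene lists were chosen with earlier results of these data known. Values were used as log2(value + 4). Tested were 13648 probe sets, the upper 60% by mean, with limma 3.58.1 in R 4.3.3 (lmFit, eBayes with a trend, 1 mean per hour, two-sided, Benjamini-Hochberg over all 13648, adjusted p under 0.05). The 55 correlations of the replicate differences between hours ran from 0.135 to 0.633, so the replicate number of the labels pairs the samples. The series contrast has the replicate series as its term. The contrasts between hours leave this pairing out, except where the replicate block is named. The script was tested on simulated data with known changes. Members were named by list, range, level, lowest hour, neighbouring hours and test results. Genes were not grouped by RefSeq descriptions, which the table used here does not give. Each array left out in turn, other scalings, pseudocounts, filters and rule thresholds were tried. The number of arrays limits the precision.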

Additional observations from a re-analysis of the deposited data

How the results depend on the processing

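The count of 186 members depends on the thresholds of the rule. It was 122 with a mean of at least 100 and 316 with a range of at least 1. It was between 312 and 344 when range and highest hour were read in a single series. Quantile normalization gave 194 members, of which 184 were among the 186, equal array medians 171 (169 shared), 0 and 24 h kept apart 169 (167 shared), and leaving out the 8 h and 16 h arrays 228 (185 shared). With a range of at least 1, 57.0% of the probe sets chosen on series 1 were highest at 20 h in series 2, and 53.4% of those chosen on series 2 in series 1. With a pseudocount of 40 the second share was 76.3%.

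Against the other hours, 20 h had 1349 called probe sets, 2312 with the replicate block, and 490 to 1406 with an array left out. The lowest counts were 490 without the 20 h array of series 1 and 813 without that of series 2, where the lone 20 h array is assumed to vary like the other hours. Called list genes numbered 8, with 5 to 10 when an array was left out, 5 of them without the 20 h array of series 1, and 12 with the block. For 24 h against 0 h, no probe set passed under any alternative run, the block included. For series 2 against series 1, between 67 and 77 members passed with an array left out, and 68 without the 3 arrays of highest actin ratio or without the 8 h and 16 h arrays, both chosen after seeing the data. The causes of these shifts were not tested. The promoter motif share was not run, since no promoter sequences were used here. With 2 arrays per hour, no hour's values could be checked for an outlying array.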
